A study of Drosophila melanogaster with 2 samples.

Results

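The cuticle protein genes described here are the 121 of 13945 protein-coding genes on the 6 main chromosome arms whose Ensembl symbol begins with Cpr and a digit, Twdl, Ccp84, Lcp, Acp65 or Edg. They comprise 70 Cpr genes, 25 Twdl genes, 15 Lcp genes, 7 Ccp84 genes, 3 Edg genes and Acp65Aa, and 3 further matching entries that are pseudogenes or non-coding were left out. Each gene was given a territory, its annotated body plus 2000 bp upstream, and was called bound in a peak list when the summit of a peak (its position of highest signal) lay in that territory. The peaks come from chromatin immunoprecipitation and sequencing of Gcm, the glial cells missing transcription factor, in whole Drosophila melanogaster embryos of both sexes aged 0 to 16 hours. The embryos came from a transgenic line carrying Gcm with GFP fused to its C-terminus, and the protein was recovered through the GFP. There were 2 biological replicates, numbered 1 and 3, with the same donor label, and they form the only group. Embryos without the tagged protein were not analysed here, and in whole embryos binding in few cells and weak binding in many cells cannot be told apart. The 4 deposited lists are 1 list per replicate and 1 list from both together (pooled), with 30000 peaks each, and a list of 5707 peaks thresholded on the irreproducible discovery rate (IDR), a measure of how repeatable peak ranks are between replicates. Every IDR peak is also a pooled peak, and together they are the 5707 pooled peaks of highest signal.

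Insect cuticle is a layered matrix of chitin and protein that epidermal cells, and the cells lining the trachea and the ends of the gut, secrete at their apical surface. Most Cpr, Lcp and Ccp84 products and the Acp65Aa product carry the Rebers and Riddiford domain, which binds chitin, while the Twdl genes encode Tweedle proteins, a separate family of secreted cuticle proteins that affect body shape. The Edg genes were named for their dependence on the steroid hormone ecdysone, and Edg91 encodes a glycine-rich protein. The embryo lays down the first larval cuticle late in embryogenesis, and many family members serve later larval, pupal or adult cuticles. Gcm is known for its role in glial and blood cell fate and binds an 8-base consensus that can be spelled as the words ATACGGGC, ATACGGGT, ATGCGGGC and ATGCGGGT.

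Of 31 different pooled summits in these territories, 3 had a Gcm word within 100 bp, beside 4.77% of all pooled peaks, and they are shown first because they hold the factor's own word. Of the 4 IDR summits 1 had the word, beside 9.76% of all IDR peaks, and among the strongest peaks of replicate 1 alone 0 of 4 had it. The summit between Cpr65Ay and Cpr65Az had no replicate 3 summit within 250 bp. The first is the 201-base window centred on the highest summit at any cuticle protein gene, upstream of Cpr67Fb (chr3L:10893283-10893483). The others are 40-base windows around the word between the divergent genes Cpr65Ay and Cpr65Az (chr3L:6159421-6159460) and upstream of Edg91 (chr3R:17612219-17612258). The last line gives, for comparison, the 201-base window at the IDR summit upstream of Cpr100A (chr3R:30865506-30865706), which holds no Gcm word. Sequences are the plus strand of the RefSeq Release 6 assembly (dm6), and capitals mark the Gcm word on either strand.
Cpr67Fb summit: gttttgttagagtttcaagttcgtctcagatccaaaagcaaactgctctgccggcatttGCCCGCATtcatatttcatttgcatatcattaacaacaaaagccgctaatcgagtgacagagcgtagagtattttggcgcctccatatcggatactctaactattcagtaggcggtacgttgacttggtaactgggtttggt
Cpr65Ay and Cpr65Az summit: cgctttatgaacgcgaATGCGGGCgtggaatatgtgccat
Edg91 summit: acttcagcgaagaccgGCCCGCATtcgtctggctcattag
Cpr100A summit: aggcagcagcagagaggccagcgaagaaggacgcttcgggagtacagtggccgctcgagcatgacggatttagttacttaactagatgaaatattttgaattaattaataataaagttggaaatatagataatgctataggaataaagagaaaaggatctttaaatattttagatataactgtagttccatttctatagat

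Few cuticle protein genes were bound. In the IDR list 3 of 121 members were bound (2.48%), against 28.2% of all protein-coding genes. In the pooled list 18 were bound (14.9%), against 51.2% of all genes. Replicate 1's own list bound 21 members (17.4%, against 54.0%) and that of replicate 3 bound 23 (19.0%, against 53.1%), a mean of 18.2% ± 1.17 (SD, n = 2). In the 5707 strongest peaks of each replicate, 3 members were bound in replicate 1 (2.48%, against 29.0%) and 5 in replicate 3 (4.13%, against 28.2%), a mean of 3.31% ± 1.17 (SD, n = 2). A total of 16 members were bound in both replicates' own lists (13.2%, against 48.9%). In the replicates' own lists the gap to all genes was larger than the difference between the replicates, and the IDR and pooled lists are single lists with no replicate spread.

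These genes are short, with a median body of 957 bp against 2166 bp for all genes, and a shorter territory has less room for a summit. The background was therefore also taken over genes under the same territory limits. Members still tended to be shorter under the 5000 bp limit, where 63 of 109 had at most 3000 bp, against 2678 of 8625 genes. Of 109 members with a territory of at most 5000 bp, 2 were bound in the IDR list (1.83%), against 19.5% of all genes that short, and 17 in the pooled list (15.6%), against 41.8%. Of 63 members with a territory of at most 3000 bp, 1 was bound in the IDR list (1.59%), against 12.4%, and 15 in the pooled list (23.8%), against 32.0%. The pooled shares lie closest in this shortest class, so the size of the pooled difference depends on the length class compared. Among members the pooled share was higher under the 3000 bp limit than under the 5000 bp limit, the reverse of the order over all genes. The IDR shares of members followed the order of all genes, but they rest on 1 gene and 2 genes. Reads from sequence that recent duplicates share can be hard to place. In 23 members under 95% of 31-base words of the territory occur once on the 6 arms, the lowest being Lcp65Aa with 30.2%. Among the 98 members at or above that share, 2 were bound in the IDR list (2.04%, against 29.1% of such genes) and 16 in the pooled list (16.3%, against 52.7%). Low shares were thus also found among members whose territory is almost wholly unique sequence. The part of read placement was not tested, since the aligner and its settings were not given.

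**Figure D1:**
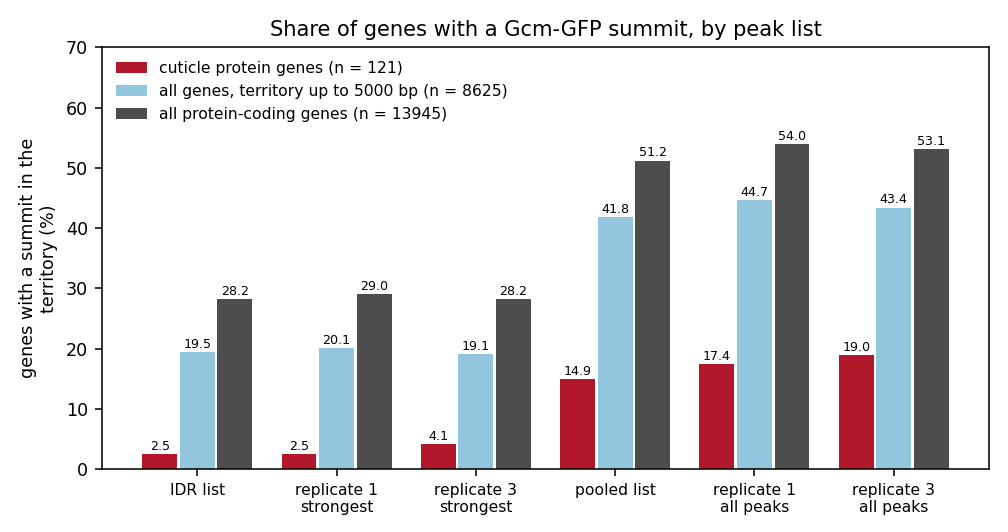
Bars give the percentage of genes with a summit in the territory (vertical axis) in each peak list (horizontal axis) for the 121 cuticle protein genes, all protein-coding genes with a territory of up to 5000 bp, and all 13945 protein-coding genes; "strongest" means the 5707 highest peaks of a replicate. In every list the cuticle protein genes sit lowest, from 2.48% in the IDR list to 19.0% in replicate 3.

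Summits were scarce close to the transcription start site (TSS) of these genes. No member had an IDR summit within 100 bp or within 500 bp of a TSS, against 6.32% and 18.9% of all genes, and 3 had one within 1000 bp (2.48%, against 22.2%). These 3 were Cpr67Fb, Cpr73D and Cpr65Ay, and are not the same 3 as those bound in the IDR list. The summit near Cpr65Ay lay beyond its 3′ end and outside its territory, and that of the bound Cpr100A lay 1915 bp from its TSS. In the pooled list no member had a summit within 100 bp (against 20.5%), 5 had one within 500 bp (4.13%, against 41.4%) and 13 within 1000 bp (10.7%, against 46.3%). The median distance from a member's TSS to the nearest summit was 14929 bp in the IDR list, with quartiles of 8277 and 28937 bp, against 7087 bp for all genes. In the pooled list it was 8189 bp against 1624 bp. Both replicates gave the same order, with medians of 7758 bp against 1141 bp in replicate 1 and 6769 bp against 1314 bp in replicate 3. The closest summit to any member's TSS lay at 587 bp in the IDR list, 220 bp in the pooled list, 23 bp in replicate 1 and 241 bp in replicate 3.

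**Figure D2:**
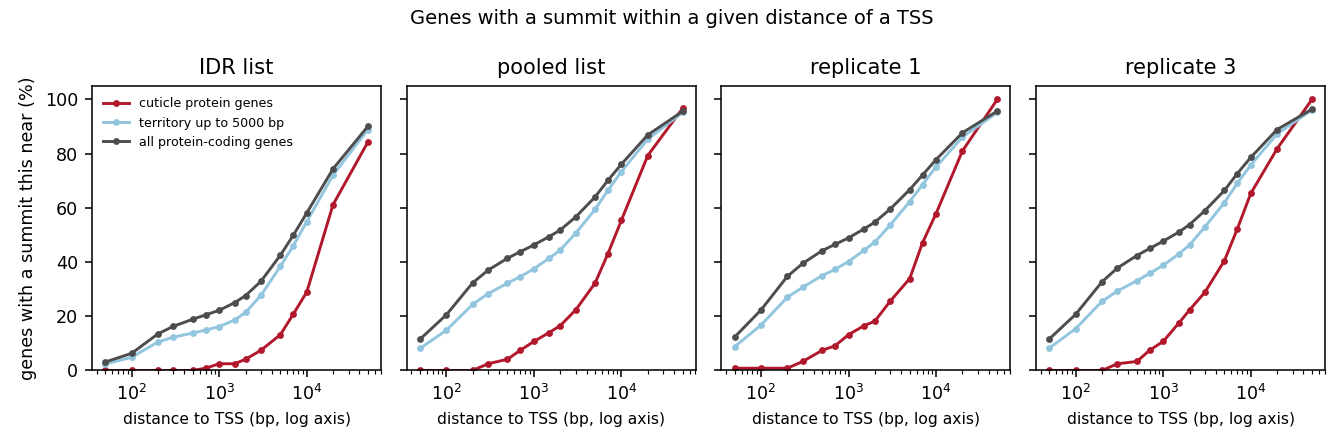
Each panel plots, for 1 peak list, the percentage of genes (vertical axis) with a summit within a given distance of a TSS (horizontal axis, log scale), for cuticle protein genes, genes with a territory of up to 5000 bp and all protein-coding genes. In the IDR and pooled panels the cuticle protein gene curve is at 0% at 100 bp and lies below the others up to 20 kb.

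Among the 3 members bound in the IDR list, Cpr67Fb stood highest. Cpr67Fb (FBgn0036110, arm 3L) had 2 IDR summits upstream. The first, in the peak from 10893227 to 10893477, lay 790 bp before the TSS, with a signal of 428 in the pooled list, 207 in replicate 1 and 203 in replicate 3. It ranked 1514 of the pooled peaks, 2035 in replicate 1 and 1394 in replicate 3, and the Gcm word printed above lies 38 bp from the summit. The second summit, in the peak from 10893374 to 10893797, lay 587 bp before the TSS with a signal of 359, and it had no Gcm word within 100 bp. Replicate 1 also had 2 summits in this territory, and its stronger peak, of 207, was the one matched to both pooled summits, while replicate 3 had 152 at the second. Neither summit was nearer to another gene, the next TSS being that of the neighbouring member Cpr67Fa2, at 1669 bp from the first summit and 1872 bp from the second. The antisense RNA gene asRNA:CR45171 reaches to within 100 bp of the second summit.

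Cpr100A (FBgn0039805, arm 3R) had 1 IDR summit, in the peak from 30865394 to 30865817. Its signal was 234 in the pooled list (rank 4271), 117 in replicate 1 and 116 in replicate 3. It lay 1915 bp upstream, just inside the 2000 bp limit, and the next gene, CG15545, was 6745 bp away. Cpr73D (FBgn0036680, arm 3L) had an IDR summit in an intron, in the peak from 16956847 to 16956983, with a signal of 215 (rank 4835), 119 in replicate 1 and 105 in replicate 3. Its own TSS was 808 bp away and the TSS of Ogdh, which encodes a subunit of the 2-oxoglutarate dehydrogenase of the citric acid cycle, 558 bp away. With only the outermost TSS of each gene, Ogdh was no longer nearer to this summit. Cpr73D held 6 pooled summits, the most of any member, and in 4 of them the Ogdh TSS was nearer, down to 30 bp. In Cpr73D, 55.9% of 31-base words of the territory were unique.

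Values just outside the 2000 bp limit were of the same height as those of Cpr100A and Cpr73D. Between Cpr65Eb and Cpr65Ec a single IDR summit lay 2160 bp upstream of the first and 2257 bp upstream of the second, with a signal of 255 (133 in replicate 1, 120 in replicate 3). Cpr51A had an IDR summit 3057 bp upstream with a signal of 239, against 143 and 103 in the replicates. In the Cpr65A region an IDR summit of signal 250 lay 851 bp from the TSS of Cpr65Ay but beyond the 3′ end of that gene, and it was nearest to CG13297, at 402 bp. At Cpr47Ef an IDR summit of 213 lay 3207 bp upstream and was nearer to TpnC47D, a troponin C gene, at 496 bp. The highest IDR summit within 5000 bp of a member's TSS, with a signal of 2825 and rank 9, was 3992 bp from Cpr78Cc and 86 bp from CG11309.

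The other 15 members bound in the pooled list were reached by summits from rank 7694 (Cpr72Eb) to 27893 (Cpr65Ec) of 30000. None could rank among the first 5707, since those peaks are the IDR list. All 31 pooled summits, those of the 3 IDR-bound members included, had a median signal of 79.9, from 41.7 to 428. The median over all pooled peaks was 85.0. Of the 31, 4 were in the IDR list, whose lowest signal is 190. Of the 31 summits, 21 had a summit within 250 bp in both replicates, 6 in replicate 1 alone and 4 in replicate 3 alone. This match was not counted over all pooled peaks, so whether it is usual for them is not known here. The 31 summits form 35 pairs of gene and summit, since 4 summits lay in the territories of 2 members. Of the 35 pairs, 30 were upstream of the gene, 2 in a 5′ UTR, 2 in an intron, 1 in a coding exon and 0 in a 3′ UTR. Place was not counted for the pairs of all genes. Upstream sequence makes up most of a typical member's territory (median body 957 bp, median territory 2957 bp). The counts by place therefore describe the members alone.

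**Figure D3:**
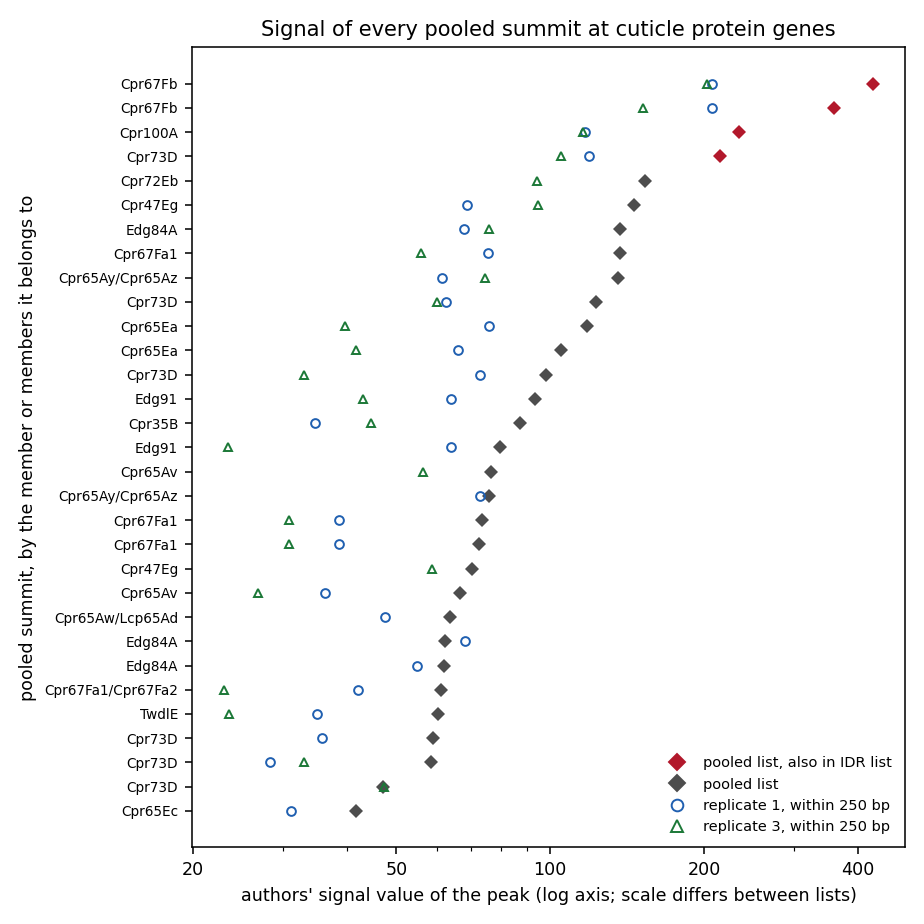
Each row is 1 of the 31 pooled summits in a cuticle protein gene's territory, named by its gene or genes (vertical axis), against the authors' signal (horizontal axis, log scale; the scale differs between lists). Diamonds are pooled signals, circles replicate 1 and triangles replicate 3, left out where no summit lay within 250 bp; the 4 IDR summits, from 215 to 428, lie to the right of all others.

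Outside the IDR list, Cpr72Eb had the highest pooled summit, with a signal of 153 at 544 bp upstream, which replicate 3 held at 94.1 and replicate 1 did not have within 250 bp. Cpr47Eg followed with 146, from 68.8 in replicate 1 and 94.8 in replicate 3, but that summit lay 1386 bp from its own TSS and 106 bp from that of Vhl, a ubiquitin ligase subunit gene. These are the 2 genes that only the strongest peaks of replicate 3 added to the 3 IDR-bound members, at ranks 5268 and 5228. The Cpr65Ay and Cpr65Az pair shared a summit of 136, from 61.4 and 74.5 in the replicates, at 1422 bp and 762 bp from their start sites. The same pair shared the summit of 75.8 with the Gcm word printed above, 36 bp from it, which replicate 1 held at 72.8. At Cpr65Ea the higher summit had a signal of 118, from 75.9 and 39.7, at 261 bp upstream.

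Among the ecdysone-dependent genes, Edg84A had 3 pooled summits upstream, at 1075, 797 and 569 bp. The highest had a signal of 137, from 67.8 in replicate 1 and 75.8 in replicate 3, and the other 2, of 62.0 and 62.1, had no replicate 3 summit within 250 bp. Edg91 had summits of 93.2 and 79.9 at 553 and 771 bp upstream. The second holds the Gcm word printed above, 44 bp from the summit, and lay nearer to CG34281, at 605 bp. Replicate 1 had 1 peak of 64.0 for both Edg91 summits, and replicate 3 had 43.0 and 23.4. The third gene of this family, Edg78E, had no summit in any of the 4 lists.

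Bound shares by family followed from these few genes. Over all protein-coding genes the shares were 28.2% in the IDR list, 51.2% in the pooled list, 54.0% in replicate 1 and 53.1% in replicate 3. Of the 70 Cpr genes, 3 were bound in the IDR list (4.29%, and 5, or 7.14%, in the strongest peaks of replicate 3 alone), 14 in the pooled list (20%), 15 in replicate 1 (21.4%) and 17 in replicate 3 (24.3%). The other families held 51 genes, 0 of them bound in the IDR list. Of the 25 Tweedle genes, 1 was bound in the pooled list (4%), 2 in replicate 1 and 3 in replicate 3. That gene was TwdlE, on arm 2L, with a summit of 60.3 at 1100 bp upstream, from 35.0 and 23.5 in the replicates. Of the 15 Lcp genes, 1 was bound in the pooled list (6.67%), 2 in replicate 1 and 0 in replicate 3. That gene was Lcp65Ad, whose summit of 63.6 lay 1404 bp upstream and inside a coding exon of Cpr65Aw, whose TSS was 422 bp away. The 7 Ccp84 genes had 0 bound members in each of the 4 lists. Of the 3 Edg genes, 2 were bound in the pooled list and in each replicate (66.7%). That share rests on 3 genes and is not far from the shares of all genes in those lists. Acp65Aa was bound in replicate 3 alone, by a peak of 29.3.

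Across the lists, 93 members had no summit in any list and 15 were bound in both replicates and the pooled list. Of these combinations, only binding in both replicates was also counted over all genes (13.2% of members, against 48.9%). The counts below therefore describe the members alone. Cpr66D was bound in both replicates, at 27.3 and 22.3, but not in the pooled list. Cpr65Aw and Lcp65Ad were bound in replicate 1 and the pooled list, and Cpr72Eb in replicate 3 and the pooled list. Cpr57A, Lcp9 and TwdlG were bound in replicate 1 alone, by peaks of 28.6, 58.3 and 24.5. Cpr47Ef, Cpr51A, Acp65Aa, Cpr67B, TwdlM and TwdlS were bound in replicate 3 alone, by peaks of 44.1, 26.9, 29.3, 32.1, 48.9 and 20.9. The median peak had a signal of 50.9 in replicate 1 and 42.6 in replicate 3, so of these 9 replicate-specific members 3 were above the median of their list.

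Most of these genes lie in tandem clusters. Runs of at least 3 members with at most 10000 bp between neighbours gave 16 clusters holding 88 members, with 33 members outside. The largest, from Lcp65Ag3 to Cpr65Az on arm 3L, held 18 members in 31.2 kb. In the IDR list 1 of the 88 clustered members (1.14%) and 2 of the 33 others (6.06%) were bound, against 28.2% of all protein-coding genes. These shares rest on 1 gene and 2 genes. In the strongest peaks of replicate 3 alone these were 3 of 88 (3.41%) and 2 of 33 (6.06%), against 28.2% of all genes. The clustered count therefore rests on which libraries are used. In the pooled list the shares were 14.8% (13 members) and 15.2% (5 members), against 51.2% of all genes. Clustered and single members thus had nearly the same share there. The 16 cluster spans cover 257 kb and held 5 IDR summits, 1.95 per 100 kb against 4.26 over the arms, and 26 pooled summits, 10.1 per 100 kb against 22.4. Of the 16 clusters, 10 with 46 members held no pooled summit, 12 held no IDR summit and 8 held no summit in either replicate. Runs of other short genes were not counted in this way.

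The second-chromosome larval cuticle genes Lcp1, Lcp2, Lcp3 and Lcp4, on arm 2R, had no summit in any list. They lay in a stretch of 252 kb between neighbouring pooled summits, from CG11635 to CG8736 as the nearest genes. Of the 29994 intervals between pooled summits, 12 were at least as long, this one included, and the median was 1162 bp. The IDR-free stretch around them was 274 kb, and 25 of 5701 IDR intervals were at least as long. The 12 Tweedle genes from TwdlM to TwdlD, on arm 3R, spanned 23.9 kb with no pooled summit and none in replicate 1, and had 2 summits in replicate 3. Their pooled-free stretch was 98.9 kb, a length that 134 pooled intervals reached. Cpr49Aa to Cpr49Ad and Cpr49Ae to Cpr49Ah, on arm 2R, lay in a single pooled-free stretch of 92.2 kb.

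The other clusters with no pooled summit were Cpr62Ba to Cpr62Bc, Cpr64Aa to Cpr64Ad, Cpr76Ba to Cpr76Bd, Cpr78Ca to Cpr78Cc with Edg78E, TwdlF to TwdlV and TwdlX to Twdlalpha. Their pooled-free stretches ran from 18.3 kb at Cpr78Ca to 59.6 kb at Cpr76Ba. At the opposite end, all 3 members of the Cpr67Fa1 to Cpr67Fb cluster were bound in the pooled list, by 6 summits in 6.70 kb, 2 of them IDR summits. The Cpr67Fa1 summits ran from 61.2 to 137, and the 1 nearest its TSS, at 224 bp, also lay in the territory of Cpr67Fa2. In the 18-member Lcp65Ag3 to Cpr65Az cluster 5 members were bound in the pooled list, by summits in the stretch from Cpr65Av to Lcp65Ad and between Cpr65Ay and Cpr65Az. In the cluster from Edg84A to Ccp84Aa the 3 pooled summits all lay upstream of Edg84A, at 1 end, and none among the 7 Ccp84 genes. This cluster sits in an IDR-free stretch of 84.3 kb between lab and Ama.

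**Figure D4:**
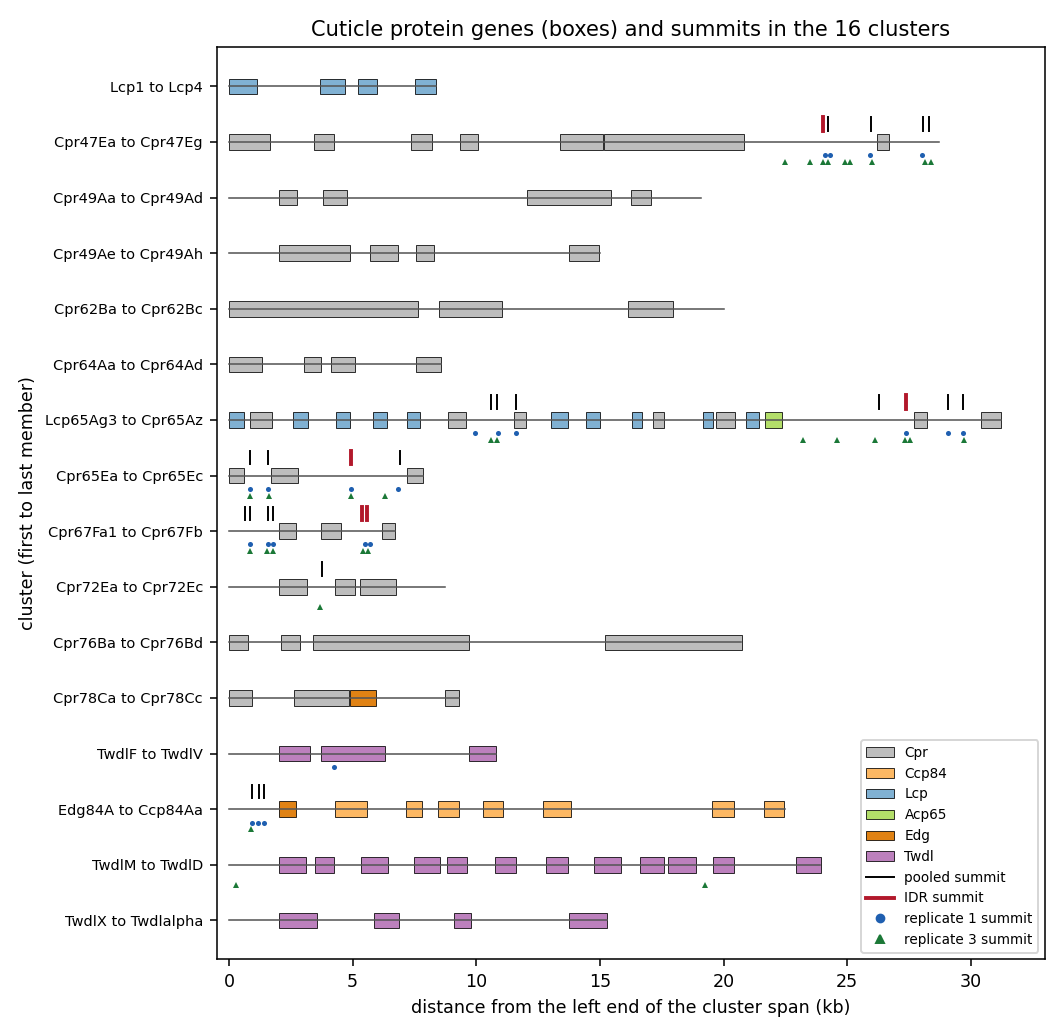
Each row is 1 of the 16 clusters, drawn to scale from the left end of its span (horizontal axis, kb), with boxes for the genes coloured by family, vertical ticks for pooled (black) and IDR (red) summits, and dots and triangles for replicate summits. Black ticks appear in 6 rows and red ticks in 4, and 8 rows, among them Lcp1 to Lcp4 and both rows of Cpr49 genes, hold no summit of any list.

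Another gene's TSS was nearer in 1 of the 4 IDR pairs of member and summit (25%), the Cpr73D intron, against 2146 of 6701 pairs (32.0%) over all genes. With only the outermost TSS of each gene the count was 0 of 4, and in the strongest peaks of replicate 3 alone it was 2 of 6. In the pooled list another TSS was nearer in 12 of 35 pairs (34.3%), against 30.8% over all genes. In 5 of the 12 the nearer gene was another cuticle protein gene, and in 7 it was not, with Ogdh (4), Vhl (2) and CG34281 (1) as those genes. Members with at least 1 territory summit nearest to their own TSS numbered 2 in the IDR list (1.65%, against 19.8% of all genes) and 15 in the pooled list (12.4%, against 41.5%). No pair lay within 100 bp of the member's TSS, against 13.3% of IDR pairs and 10.2% of pooled pairs over all genes. Assigning each IDR summit only to its nearest TSS, whatever the distance, gave 5 members, Cpr67Fb, Cpr100A, Cpr51A, Cpr65Eb and Cpr92A, the last from a summit of signal 686 at 14047 bp. The same assignment reached 22.8% of all genes.

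The promoters of these genes had a sequence feature that the choice of genes did not use. The word TATAAA, the core of the TATA box that positions transcription, was sought on the gene's strand with its first base 20 to 40 bases before the annotated 5′ end. It was there in 69 of 121 members (57.0%), against 7.79% of all protein-coding genes and 4.58% of genes with a pooled summit. By family it was there in 34 of 70 Cpr (48.6%), 15 of 25 Twdl (60%), 11 of 15 Lcp (73.3%), 5 of 7 Ccp84 (71.4%), 3 of 3 Edg and the single Acp65 promoter. The 60 bases just before the 5′ end of 9 genes, on the gene's strand from RefSeq Release 6 (dm6), show where the word sits, in capitals; the genes were picked as examples that hold it, from each family. They are Cpr67Fa1 (chr3L:10889930-10889989), Cpr67Fb (chr3L:10894113-10894172), Cpr100A (chr3R:30867461-30867520), Edg84A (chr3R:6684385-6684444), Edg91 (chr3R:17611512-17611571, minus strand), Acp65Aa (chr3L:6152746-6152805, minus strand), Ccp84Ac (chr3R:6696272-6696331, minus strand), Lcp65Ac (chr3L:6144759-6144818) and TwdlM (chr3R:26619058-26619117).
Cpr67Fa1: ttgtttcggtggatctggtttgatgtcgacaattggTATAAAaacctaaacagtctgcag
Cpr67Fb: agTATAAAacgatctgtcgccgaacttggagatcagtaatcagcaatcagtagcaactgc
Cpr100A: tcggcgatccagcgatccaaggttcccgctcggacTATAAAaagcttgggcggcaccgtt
Edg84A: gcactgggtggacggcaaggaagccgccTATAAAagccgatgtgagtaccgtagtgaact
Edg91: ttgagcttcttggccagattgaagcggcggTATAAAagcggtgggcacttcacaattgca
Acp65Aa: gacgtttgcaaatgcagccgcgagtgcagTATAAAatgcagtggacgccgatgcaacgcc
Ccp84Ac: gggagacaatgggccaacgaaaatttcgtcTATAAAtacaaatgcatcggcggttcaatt
Lcp65Ac: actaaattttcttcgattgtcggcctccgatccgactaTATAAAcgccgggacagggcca
TwdlM: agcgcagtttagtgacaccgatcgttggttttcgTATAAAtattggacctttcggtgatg

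The word begins 22 to 32 bases before the 5′ end in 8 of the 9 promoters, the exception being Cpr67Fb, the member with the highest summit, where it begins 58 bases before. Members with the placed word were bound in 1 of 69 cases in the IDR list (1.45%) and 12 of 69 in the pooled list (17.4%). Those without it were bound in 2 of 52 (3.85%) and 6 of 52 (11.5%). Over all genes, the 1087 with the placed word were bound in 11.1% of cases in the IDR list and 30.1% in the pooled list, against 29.7% and 53.0% of the 12858 without. Both values for cuticle protein genes with the word lie below those of all genes with it, but territory length was not matched here. In the pooled list members with the word had the higher share, the reverse of the order over all genes. In the IDR list they had the lower share, as over all genes, on 1 gene against 2. The part of the promoter type in the low binding of these genes was not tested.

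Other words were sought on both strands from 250 bases before to 50 after the 5′ end, and matches of different words were counted separately even where they overlap. TATAAA anywhere in that window was found in 91 members (75.2%, against 45.8%). A Gcm word was found in 0 of 121 promoters (against 0.947% of all promoters), and so was AACCGGTT, a word of Grainyhead, a factor of epidermal barrier genes (against 0.753%). The word TATCGATA of the DNA replication-related element, found in 9.36% of all promoters and 11.9% of those of genes with a pooled summit, was found in 1 member, Cpr49Af. The GAGA factor word GAGAGAG was found in 1 member, Cpr66D, against 5.87% of all promoters. The Ftz-f1 word CAAGGTCA was found in 1 member, Edg84A (0.826%, against 0.495%), a gene that Ftz-f1 is known to regulate in prepupae. It lies on the minus strand, starting 100 bases before the 5′ end, and is shown in capitals with its flanks (chr3R:6684334-6684363, plus strand).
Edg84A Ftz-f1 word: ggtccccgcgaTGACCTTGttaagatccag

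**Figure D5:**
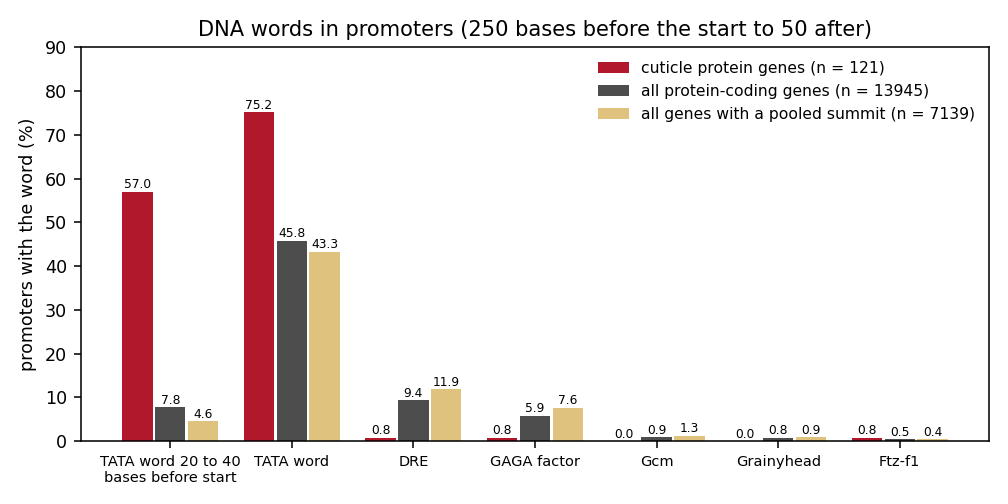
Bars give the percentage of promoters (vertical axis) that hold each DNA word (horizontal axis) for cuticle protein genes, all protein-coding genes and all genes with a pooled summit. The placed TATA word stands at 57.0% against 7.79%, while the DRE and GAGA factor words stand at 0.826% against 9.36% and 5.87%.

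At the summits, 1 of 4 IDR summits and 3 of 31 pooled summits in these territories had a Gcm word within 100 bp, beside 9.76% of all IDR peaks and 4.77% of all pooled peaks. The IDR count became 0 of 4 in the strongest peaks of replicate 1 alone, 1 of 6 in those of replicate 3 alone, and 2 of 4 with 250 bp on each side. With so few summits these counts are a description only.

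Other genes of the cuticle were taken as 4 lists, all with longer territories than the cuticle protein genes, and are read beside the 28.2% (IDR) and 51.2% (pooled) of all genes. Of 19 genes of chitin synthesis and organisation, 3 were bound in the IDR list (15.8%) and 9 in the pooled list (47.4%), with a median territory of 8265 bp. The highest was Cht7, a chitinase gene, with a summit of 505 at 146 bp upstream, from 287 and 223 in the replicates. Cda5, a chitin deacetylase gene, had 3 IDR summits, and 1 of them had a Gcm word. The highest, of 374, lay 1473 bp upstream of Cda5 and nearer to the TSS of dbr. Of 7 genes of sclerotisation and melanisation, 1 was bound in the IDR list (14.3%) and 4 in the pooled list (57.1%), with a median territory of 7603 bp. Both IDR shares are below that of all genes, and both pooled shares are near it. The median territory over all genes is shorter, at 4166 bp, and no background of like length was taken for these lists. The bound sclerotisation gene was e, or ebony, which joins beta-alanine to dopamine for tanning. Its summit of 421, from 217 and 199, lay 164 bp upstream (chr3R:21237168-21237451) with a Gcm word.

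Of 12 transcription factor genes that control cuticle genes, 10 were bound in the IDR list (83.3%, against 28.2% of all genes) and 12 in the pooled list (against 51.2%), but their median territory was 39521 bp, against 2957 bp for the cuticle protein genes. The highest summit, of 1502 and rank 87 in an intron of Hr3, a nuclear receptor gene of the ecdysone cascade, had 803 in replicate 1 and 677 in replicate 3. The gene ftz-f1 had 8 IDR summits, 2 with a Gcm word, and EcR, the ecdysone receptor gene, had 9, 1 with a Gcm word. Of 10 genes of apical matrix proteins with a zona pellucida domain, 4 were bound in the IDR list (40%, against 28.2%) and 7 in the pooled list (70%, against 51.2%), with a median territory of 17927 bp, led by tyn with 434. The chemoreceptor and odorant-binding genes, another large set with short territories (median 3498 bp), came close to the cuticle protein genes. Of these 230 genes, 4 were bound in the IDR list (1.74%) and 32 in the pooled list (13.9%). The cytoplasmic ribosomal protein genes, with a like median territory of 3325 bp, were bound in 65 of 88 cases in the IDR list (73.9%) and 76 in the pooled list (86.4%). Whether the shares of these gene sets differ was not tested.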

How the data were processed

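Positions are 1-based on dm6. The authors deposited 4 peak lists, 1 called on each replicate, 1 on both replicates pooled and 1 derived from these by an IDR threshold, per the file descriptions deposited with them. They share a control file, which was not used here. For the IDR threshold, caller and aligner, names and settings were not given in the sources used here. Each peak's signal value is the authors' own, on a scale that differs between lists, and was used only for ranks and descriptions inside each list. The deposited −log10 q-value has a ceiling and was not used. Read depth is unknown, since peak lists hold no totals, so no interval is given.

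Genes and start sites are those of Ensembl release 115 (BDGP 6.54), and RefSeq Release 6 gave the sequence. Counts were made with Python 3.11.15 and NumPy 2.4.6 and tested on simulated data. With 1 group there is no comparison between groups and no test was run. Genes and peaks are not replicates. A territory is the gene body plus 2000 bp upstream, and the nearest TSS was taken over all annotated protein-coding transcripts. No peak had the same summit and signal in both replicates. Members bound in the IDR list, the highest pooled summit of each other cluster and family, and of each pathway list the highest IDR summit and those with a Gcm word were named by rule, and further genes after their values were seen. The names AANAT1 and wurst found no gene, and 5 listed names were second names of found genes. The members and lists were chosen with earlier results of these data known.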

Additional observations from a re-analysis of the deposited data

How the results depend on the processing

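Of 89 alternative values, 58 kept the count within 1.5 times and 31 did not, and the bound share of cuticle protein genes stayed below that of all genes under every alternative that gave both. The 58 include counts that stayed at 0 and counts that kept their value while the number of genes or summits they were taken from changed. Bound members in the IDR list numbered 1 with 500 bp upstream (23.6% of all genes), 1 with the gene body only (13.6%), 1 with the peaks above the list's median signal (17.9%), 1 of 63 with territories up to 3000 bp, 5 by nearest TSS only and 10 with 5000 bp upstream (36.6%). From the strongest peaks of a single replicate they numbered 3 to 5. The Cpr family moved to 1, 1, 1 and 9 with 500 bp, the body, the peaks above the median and 5000 bp, and 3 to 5 without a replicate, and the other families to 1 with 5000 bp. Bound members in clusters moved to 0 with 500 bp and with the body, and to 7 with 5000 bp, and ran from 1 to 3 without a replicate. Outside clusters they moved to 1 with 500 bp, 1000 bp and the body, and to 0 with the peaks above the median. Summits nearer another TSS moved to 6 of 11 with 5000 bp, to 0 with the peaks above the median and with 1 TSS a gene, and ran from 1 to 2 without a replicate. Their count stayed at 1 with narrower windows while the pairs fell, to 1 of 3 with 1000 bp and 1 of 1 with 500 bp and with the body. Summits with a Gcm word moved to 0 with 500 bp and with the body, to 2 with 250 bp each side, and ran from 0 to 1 without a replicate. In the pooled list bound members moved to 5 with 500 bp (44.7%) and 31 with 5000 bp (58.9%), and ran from 21 to 23 in the single-replicate lists. A wider or narrower window or list changes the count by construction, and for the single replicates the cause was not tested. With 3 IDR-bound members, any share within them rests on few genes.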
